A study of Mus musculus with 6 samples.

Results

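The genes examined here encode the enzymes that empty the lipid droplet of the adipocyte and the proteins that switch them on and off. They are 7 of the 46517 genes counted in each sample and were taken by name, not by their values, from the annotation of GRCm38. *Pnpla2*, *Pnpla3* and *Ces1d* encode lipases of triacylglycerol, *Lipe* and *Mgll* encode the enzymes of the following steps, *Abhd5* encodes an activator and *G0s2* an inhibitor. All 7 passed the filter on low counts, which asked for 1 cpm (counts scaled to library size) or more in any sample. RNA was sequenced from inguinal white adipose tissue (IngWAT) of floxed mice, which carry *Hdac3* alleles that Cre recombinase can excise and served as controls, and of H3atKO mice. In the latter the same floxed alleles were combined with the B6:FVB-Tg(Adipoq-cre)1Evdr/J transgene, which expresses Cre from the promoter of the adiponectin gene and so in adipocytes of every depot. Both genotypes were C57Bl6 mice of 5 to 9 months on chow diet. Each genotype has 3 samples, and each sample is a pool of RNA from 2 or 3 mice, so that the spread between samples is a spread between pools. Other cells of the tissue keep *Hdac3*.

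In a fat cell, triacylglycerol is taken apart one fatty acid at a time. Adipose triglyceride lipase (*Pnpla2*) cleaves the first fatty acid, hormone-sensitive lipase (*Lipe*) acts mainly on the diacylglycerol that remains, and monoglyceride lipase (*Mgll*) releases glycerol and the last fatty acid. *Abhd5* (CGI-58) binds adipose triglyceride lipase and raises its activity, while *G0s2* binds the same enzyme and blocks it. Between meals and in the cold, adrenergic signals raise cAMP, protein kinase A phosphorylates hormone-sensitive lipase and perilipin 1, and perilipin 1 lets go of *Abhd5*. *Ces1d* is a carboxylesterase of the endoplasmic reticulum and lipid droplet that hydrolyses triacylglycerol, and *Pnpla3* (adiponutrin) is a relative of *Pnpla2* whose expression is known to follow feeding.

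The genes lie apart from each other in the genome. In GRCm38 coordinates *Pnpla2* (ENSMUSG00000025509) spans chr7:141455198-141460743 on the plus strand and *Lipe* (ENSMUSG00000003123) chr7:25379527-25398710 on the minus strand. *Mgll* (ENSMUSG00000033174) spans chr6:88724412-88828360 on the plus strand, *Abhd5* (ENSMUSG00000032540) chr9:122351608-122381524 on the plus strand and *G0s2* (ENSMUSG00000009633) chr1:193272161-193273217 on the minus strand. *Pnpla3* (ENSMUSG00000041653) spans chr15:84167837-84187236 on the plus strand and *Ces1d* (ENSMUSG00000056973) chr8:93166068-93197838 on the minus strand. Their messages differ in base composition, a property that moved with genotype across the whole table. GC content of the longest transcript was 58.4% for *Pnpla3*, 57.0% for *Pnpla2*, 56.4% for *G0s2*, 55.6% for *Lipe* and 55.3% for *Mgll*, against 48.6% for *Ces1d* and 45.7% for *Abhd5*. The median of the 14922 tested genes with a known transcript was 49.2%, and 81.3% of them had a lower GC content than *Mgll*, whereas 30.9% had a lower one than *Abhd5*. Thus 5 of the 7 genes were above 55%. At the third codon position, where base choice is freest, GC content reached 76.9% in *G0s2*, 74.6% in *Pnpla3* and 68.4% in *Pnpla2*, and it was 54.1% in *Ces1d* and 50.6% in *Abhd5*. The richest 60 bases of a coding sequence did not always follow the whole transcript. They reached 73.3% GC in *Pnpla3*, 71.7% in *Abhd5* and 65% in *Mgll*. The 60 bases of highest GC content in the coding sequence of 4 of the genes are given here from the GENCODE M21 transcripts (GRCm38), 5′ to 3′ on the coding strand, with G and C in capitals. They are bases 129 to 188 of *Pnpla2* (75% GC), 1910 to 1969 of *Lipe* (75%), 247 to 306 of *G0s2* (75%) and 166 to 225 of *Ces1d* (63.3%), counted from the A of the start codon.
Pnpla2: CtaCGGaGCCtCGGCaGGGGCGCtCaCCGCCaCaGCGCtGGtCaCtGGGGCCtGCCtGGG
Lipe: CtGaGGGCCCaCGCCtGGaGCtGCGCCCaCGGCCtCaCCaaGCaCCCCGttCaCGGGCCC
G0s2: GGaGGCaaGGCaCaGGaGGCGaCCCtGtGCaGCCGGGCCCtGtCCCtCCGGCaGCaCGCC
Ces1d: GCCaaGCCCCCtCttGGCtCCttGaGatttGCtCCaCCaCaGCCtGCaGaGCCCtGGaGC

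Libraries held between 23865507 and 35200685 counts on genes, so that 3 counts, taken as the floor, correspond to 0.0852 to 0.126 cpm. Every gene examined was far above it in every sample. Genes of the mitochondrial genome took 6.92 to 12.9% of the counts in floxed and 26.9 to 35.3% in H3atKO samples, and normalized expression (cpm) is therefore given after scaling of the libraries with TMM. *Hdac3*, the targeted gene, gave 3139, 3339 and 2709 counts in the floxed pools, in the order of replicates 1 to 3 that is kept for all values, against 666, 413 and 204 in the H3atKO pools. Genotypes differed by -1.83 on the log2 scale, H3atKO minus floxed (SE 0.32, adjusted p = 0.0213, limma voom), and did not overlap. Adipocyte RNA was present in every sample, since *Adipoq* was between 1916 and 2647 cpm in floxed and between 1266 and 2876 cpm in H3atKO samples.

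The comparison of H3atKO with floxed mice asks whether loss of *Hdac3* in adipocytes alters the messages of lipolysis. The data show a mixed picture. *Lipe*, *G0s2* and *Pnpla2* had lower means in H3atKO samples, *Abhd5* was 1.55 times as high, and *Ces1d*, the most abundant of these messages on average, was at nearly the same level. *Mgll* and *Pnpla3* overlapped widely between the genotypes. Under limma voom with Benjamini-Hochberg adjustment over the 14967 genes tested, none of the 7 passed an adjusted p of 0.05, while 4 of them (*Lipe*, *G0s2*, *Pnpla2* and *Abhd5*) had an unadjusted p under 0.05. Of all genes tested, 9.42% were called upregulated and 7.07% down-regulated. The log2 fold change was negative for 5 and positive for 2 of the 7 genes, with a median of -0.66 beside -0.09 for all genes. The genotypes did not overlap in cpm for 2 of the 7 genes, *Lipe* and *Abhd5*, and across all genes this held for 51.7%.

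Samples of the same replicate number deviated together, so a block was chosen from these same data. The calls changed when the number was included in the fit as that block. *Lipe*, *G0s2* and *Pnpla2* were then called down-regulated and *Abhd5* upregulated, that is 3 and 1 of the 7 genes. In that fit 28.7% of all genes were called down-regulated and 24.8% upregulated. With only 7 genes, counts of 3 and 1 are near those shares, and no difference from all genes is read from them. Of the 7 genes, 5 were above 55% GC, and the share called among genes of like GC content was not computed. Because RNA came from whole tissue, fewer cells of a type and less RNA per cell cannot be told apart in any of these values.

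*Pnpla2*, the enzyme of the first step, stood at 3203, 1258 and 355 cpm in the floxed pools and at 339, 445 and 131 cpm in the H3atKO pools. The first floxed sample was 9.02 times the third, and floxed replicate 3 lay within the H3atKO range. Means were 1605 ± 1455 cpm (SD, n = 3) in floxed and 305 ± 160 cpm (SD, n = 3) in H3atKO samples. On the log2 scale the change was -2.06 (SE 0.79, 95% confidence interval -3.90 to -0.21, adjusted p = 0.0909 from limma voom). With the replicate block it was -1.99 and passed the test (adjusted p = 0.0088, limma). The SD of the floxed pools was nearly as large as their mean.

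*Pnpla3* behaved otherwise than its relative. It stood at 65.2, 56.9 and 55.4 cpm in the floxed pools and at 47.2, 130 and 92.8 cpm in the H3atKO pools. Floxed samples were close to each other, and H3atKO samples lay on both sides of them. Its log2 fold change was 0.48 (SE 0.38, interval -0.39 to 1.36, adjusted p = 0.338 from limma voom), and the interval runs from a fall to a rise of more than 1 log2 unit.

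*Ces1d* was steady. It stood at 1517, 2042 and 1333 cpm in the floxed pools and at 1547, 2028 and 1130 cpm in the H3atKO pools. In each genotype the second sample was the highest and the third the lowest, and same-numbered samples were close in value. Means were 1630 ± 368 cpm (SD, n = 3) in floxed and 1568 ± 449 cpm (SD, n = 3) in H3atKO samples. From floxed to H3atKO the log2 fold change was -0.076 (SE 0.31, interval -0.79 to 0.64, adjusted p = 0.862 from limma voom), which leaves room for a change in either direction of less than about 1 log2 unit.

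*Lipe*, which encodes hormone-sensitive lipase, had one of the widest ranges. It stood at 1490, 629 and 135 cpm in the floxed pools and at 67.5, 115 and 27.5 cpm in the H3atKO pools. The genotypes did not overlap, but the third floxed sample exceeded the second H3atKO sample by little, and the floxed samples themselves spanned 11.0-fold. Means were 751 ± 686 cpm (SD, n = 3) in floxed and 70.1 ± 43.9 cpm (SD, n = 3) in H3atKO samples. H3atKO differed from floxed by a log2 fold change of -3.04 (SE 0.88, interval -5.10 to -0.98), and its adjusted p of 0.0524 in limma voom lay just outside the threshold. With the replicate block it was -3.08 (adjusted p = 0.0044, limma).

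*Mgll*, which encodes the enzyme of the last step, stood at 829, 591 and 166 cpm in the floxed pools and at 216, 377 and 251 cpm in the H3atKO pools. The third floxed sample was the lowest of all 6. The log2 fold change was -0.66 (SE 0.57, interval -2.0 to 0.68, adjusted p = 0.388 from limma voom), and the replicate block did not bring it past the threshold. Without floxed replicate 3, *Mgll* had a log2 fold change of -1.35 and was called (adjusted p = 0.0175, limma), so that 4 genes were then down-regulated, *Lipe*, *G0s2*, *Pnpla2* and *Mgll*, beside 25.9% of all genes down-regulated and 18.5% upregulated in that fit. The size of these 4 differences depended on the floxed pools. *Pnpla2* was -2.89, *Lipe* -3.99 and *G0s2* -4.51 without floxed replicate 3. Without floxed replicate 1 they were -1.31, -2.27 and -2.24 and *Mgll* was -0.20, and none of them was called by limma voom.

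The activator of adipose triglyceride lipase, *Abhd5*, was the least variable of the 7 genes within a genotype. *Abhd5* stood at 174, 154 and 147 cpm in the floxed pools and at 239, 265 and 234 cpm in the H3atKO pools. Both genotypes were tight and did not overlap. Means were 158 ± 13.6 cpm (SD, n = 3) in floxed and 246 ± 16.5 cpm (SD, n = 3) in H3atKO samples, a log2 fold change of 0.64 (SE 0.21, interval 0.15 to 1.12, adjusted p = 0.0663 from limma voom), and 0.64 with the replicate block (adjusted p = 0.0249, limma).

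*G0s2*, the inhibitor, stood at 327, 116 and 13.9 cpm in the floxed pools and at 7.33, 14.8 and 5.50 cpm in the H3atKO pools. It was the most variable of the 7 genes, with a 23.6-fold span among floxed samples, and the third floxed sample lay just below the second H3atKO sample. Means were 152 ± 160 cpm (SD, n = 3) in floxed and 9.21 ± 4.92 cpm (SD, n = 3) in H3atKO samples. This gave a log2 fold change of -3.25 (SE 1.36, interval -6.42 to -0.075, adjusted p = 0.109 from limma voom), and -3.70 with the replicate block (adjusted p = 0.0087, limma). In both genotypes the third sample held the lowest *Lipe*, *Pnpla2* and *G0s2*, whereas the order of the first and second samples was reversed between the genotypes for these 3 genes.

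**Figure D1:**
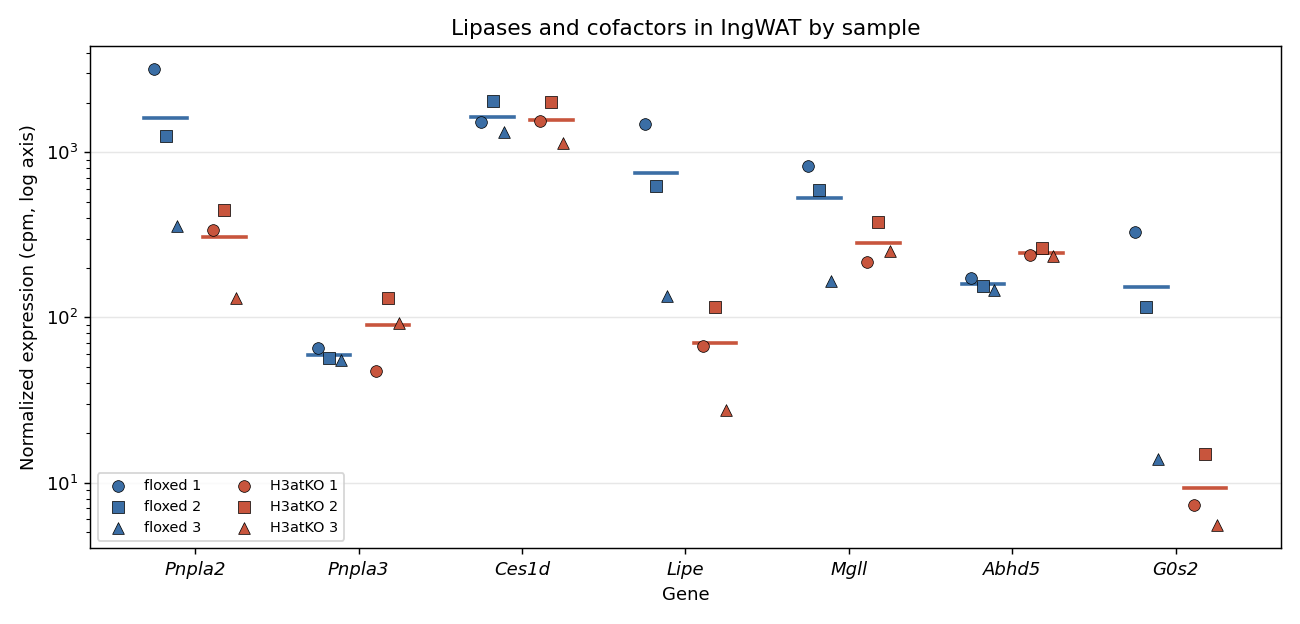
Normalized expression (cpm, log axis) of the 7 genes in each of the 3 floxed (blue) and 3 H3atKO (red) samples, with a bar at the mean of each genotype and a symbol for each replicate number. Floxed samples of *Lipe*, *Pnpla2* and *G0s2* spread over a wide range with replicate 3 near the H3atKO samples, *Abhd5* separates the genotypes at 147 to 174 against 234 to 265 cpm, and *Ces1d* is level.

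Other tests and scalings moved the number of calls, and none moved *Lipe*, *G0s2* or *Pnpla2* to a positive sign. edgeR's quasi-likelihood test called 2 of the 7 genes down-regulated, *Lipe* (adjusted p = 0.0318) and *G0s2* (adjusted p = 0.0306), beside 18.4% of all genes down-regulated and 12.8% upregulated. DESeq2 called *Lipe*, *G0s2* and *Pnpla2* (adjusted p = 0.0060) down-regulated and *Abhd5* (adjusted p = 0.0170) upregulated, beside 23.2% and 19.6% of all genes. Each gene that these 2 tools called was among the 4 that the replicate block brought past the threshold. All of these fits use the same samples, so this overlap adds no separate evidence. A limit of at least 10 counts in every sample brought *Lipe* past the threshold (adjusted p = 0.0409, limma), with 15% of the genes left in that fit down-regulated and 12.6% upregulated. At a looser threshold of 0.1, limma voom counted *Lipe* and *Pnpla2* among the down-regulated and *Abhd5* among the upregulated genes, beside 21.3% and 18.7% of all genes.

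Scaling by library size alone moved the median of all genes by -0.85 on the log2 scale, and scaling to 9 adipocyte markers moved it by 1.20. Such a scaling shifts all genes of a sample alike, so the distance of a gene from that median stays nearly the same by construction. *Lipe* was -2.95 from the median of all genes under TMM, -2.96 under library sizes and -2.96 under the adipocyte scaling. *Abhd5* was 0.73, 0.73 and 0.71 above it in the same order. In absolute terms *Abhd5* changed sign under library sizes alone (-0.22), as did *Pnpla3* (-0.36). Under library sizes *Lipe*, *G0s2*, *Pnpla2* and *Ces1d* were called down-regulated, where 37.9% of all genes were called down-regulated and 2.04% upregulated. Under the adipocyte scaling *Abhd5* (1.82, adjusted p = 0.0368 from limma) and *Pnpla3* (1.68, adjusted p = 0.0411 from limma) were called upregulated, beside 17% of all genes upregulated and 0.494% down-regulated, and *Lipe* had a log2 fold change of -1.85 (adjusted p = 0.0527, limma). Over all genes the split of 1410 up and 1058 down became 306 and 5667 under library sizes and 2547 and 74 under the adipocyte scaling.

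**Figure D2:**
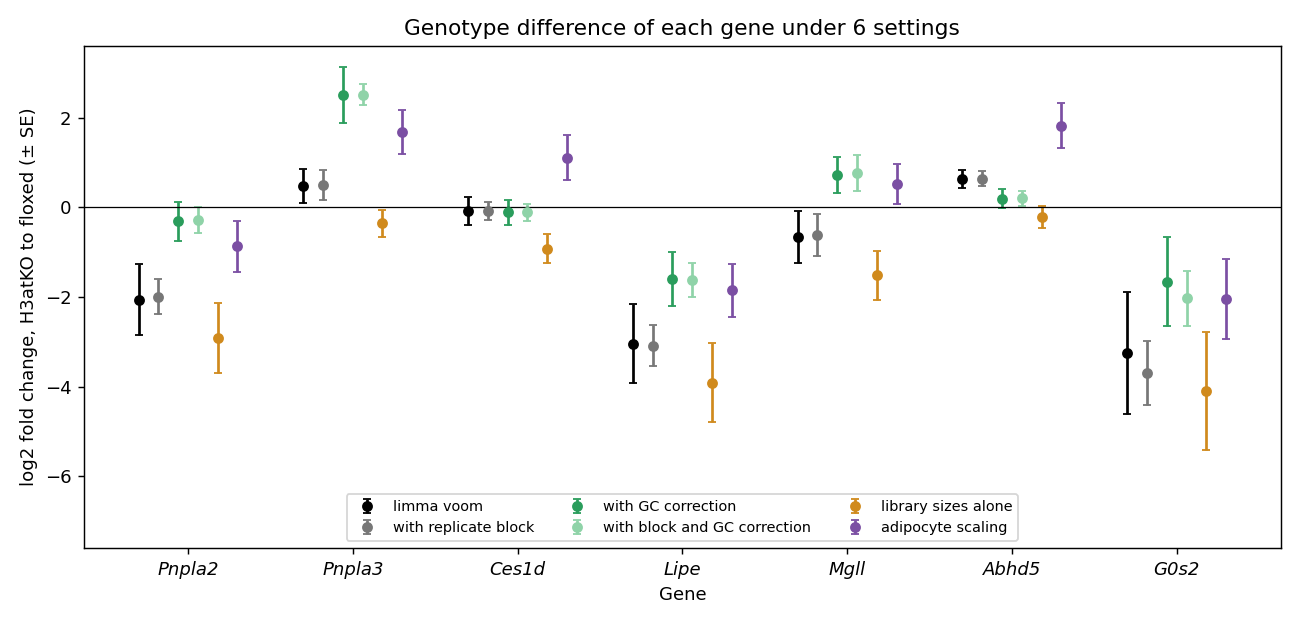
Log2 fold change from floxed to H3atKO (± SE from limma, 3 samples per genotype) of each gene under the unblocked fit, the replicate block, the GC correction, both together, library sizes alone and the adipocyte scaling. *Lipe*, *G0s2* and *Pnpla2* are below 0 in each of the 6, *Mgll* is above 0 after GC correction and adipocyte scaling, and *Pnpla3* is highest after GC correction (2.5).

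Base composition moved with the fold changes. Across all tested genes the median log2 fold change was 0.47 at a GC content of 46%, 0.01 at 49%, -1.29 at 55%, -1.62 at 56%, -1.82 at 57% and -1.89 at 58%. *Abhd5* (0.64 at 45.7%) and *Ces1d* (-0.076 at 48.6%) were near the genes of their own GC content. *Pnpla2* (-2.06 at 57.0%) was near them too, *Lipe* (-3.04) and *G0s2* (-3.25) were further below zero than theirs, and *Mgll* (-0.66) and *Pnpla3* (0.48) were above theirs. After a GC correction, in which each sample's smooth curve on GC content was subtracted, the difference of the curves alone amounted to -1.74 for *Pnpla2*, -1.61 for *G0s2*, -1.45 for *Lipe*, -1.38 for *Mgll*, -2.02 for *Pnpla3*, 0.44 for *Abhd5* and 0.03 for *Ces1d*.

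The corrected log2 fold change of *Pnpla2* was -0.31 (adjusted p = 0.653, limma), that of *Lipe* -1.60 (adjusted p = 0.133) and that of *G0s2* -1.66 (adjusted p = 0.293). *Abhd5* had 0.20 (adjusted p = 0.557, limma), *Mgll* turned to 0.72 (adjusted p = 0.268) and *Pnpla3* to 2.5 (adjusted p = 0.0543). None of the 7 passed, beside 5.6% of all genes upregulated and 3.11% down-regulated. After the correction *Pnpla3* alone of the 7 genes had no overlap between the genotypes, and the share of all genes without overlap was not computed. In a fit with both the block and the correction, *Lipe* was called down-regulated (-1.62, adjusted p = 0.0361, limma) and *Pnpla3* upregulated (2.51, adjusted p = 0.0104, limma), beside 9.7% and 13% of all genes. *Pnpla2* (-0.27, adjusted p = 0.517), *G0s2* (-2.03, adjusted p = 0.0685) and *Abhd5* (0.20, adjusted p = 0.429) were not called in that fit by limma. By its construction the correction also takes away any effect of genotype that itself follows base composition, and in these samples genotype and the GC curve cannot be told apart. Without the correction the cpm of *Pnpla3* overlapped between the genotypes.

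**Figure D3:**
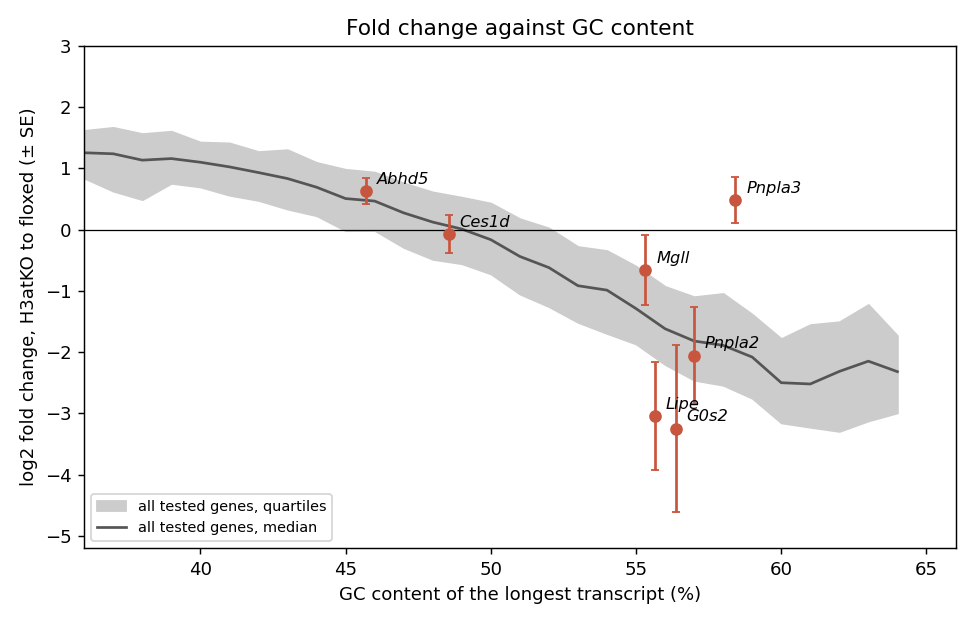
Log2 fold change from floxed to H3atKO against the GC content of the longest transcript (%). The line and band give the median and quartiles of all tested genes, and points with bars give the 7 genes ± SE; *Abhd5*, *Ces1d* and *Pnpla2* lie close to the line, *Lipe* and *G0s2* below it, *Mgll* and *Pnpla3* above it.

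Levels of different genes were compared as TPM, in which counts are divided by exon length and scaled to the sum over all genes. In floxed samples the order by mean was *Ces1d* (3044 TPM), *Pnpla2* (2297), *G0s2* (754), *Lipe* (553), *Mgll* (457), *Pnpla3* (167) and *Abhd5* (116). Of these neighbours only *Pnpla3* and *Abhd5* had ranges over the pools that were apart. Within a library, *Pnpla2* was nonetheless above *G0s2* in 3 of 3 floxed samples, while the other neighbours with overlapping ranges changed places between samples. In H3atKO samples the order was *Ces1d* (1195 TPM), *Pnpla2* (186), *Pnpla3* (98.2), *Mgll* (96.9), *Abhd5* (74.2), *Lipe* (21.5) and *G0s2* (18.6). There *Ces1d* was apart from *Pnpla2*, and *Abhd5* from *Lipe*, while the other neighbours overlapped. *G0s2* and *Lipe* were thus in the third and the fourth place in floxed and in the last places in H3atKO samples. TPM values are relative to a total that holds the mitochondrial messages, so their fall from one genotype to the other is not used as a result.

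Shares within the 7 genes do not depend on that total. *Pnpla2* made up 41.4, 24.5 and 14.5% of their summed TPM in the floxed pools and 12.5, 11.9 and 6.38% in the H3atKO pools. *Ces1d* made up 24.98, 50.8 and 69.3% in floxed and 72.7, 68.9 and 70.1% in H3atKO replicates in the same order. *G0s2* went from 14.6% in the first floxed sample to 1.96% in the third, and was between 0.929 and 1.37% in H3atKO samples. The third floxed pool therefore had a composition much like that of the H3atKO pools, and only the first floxed pool had more *Pnpla2* than *Ces1d*. Ranked by count per length among 14922 genes, *Pnpla2* was in places 21, 37 and 151 in the floxed pools and 224, 201 and 814 in the H3atKO pools. *Ces1d* stayed between places 20 and 47 in all samples. *Lipe* was in places 74, 188 and 1239 in the floxed pools and 2801, 1830 and 5405 in the H3atKO pools. *G0s2* was in places 44, 140 and 1867 in the floxed pools and 3694, 2100 and 4595 in the H3atKO pools. *Abhd5* was in places 1052 to 1136 in floxed and 773 to 905 in H3atKO samples. Places of *Pnpla2*, *Lipe*, *G0s2* and *Abhd5* did not overlap between the genotypes. The share of all genes for which this held was not computed.

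**Figure D4:**
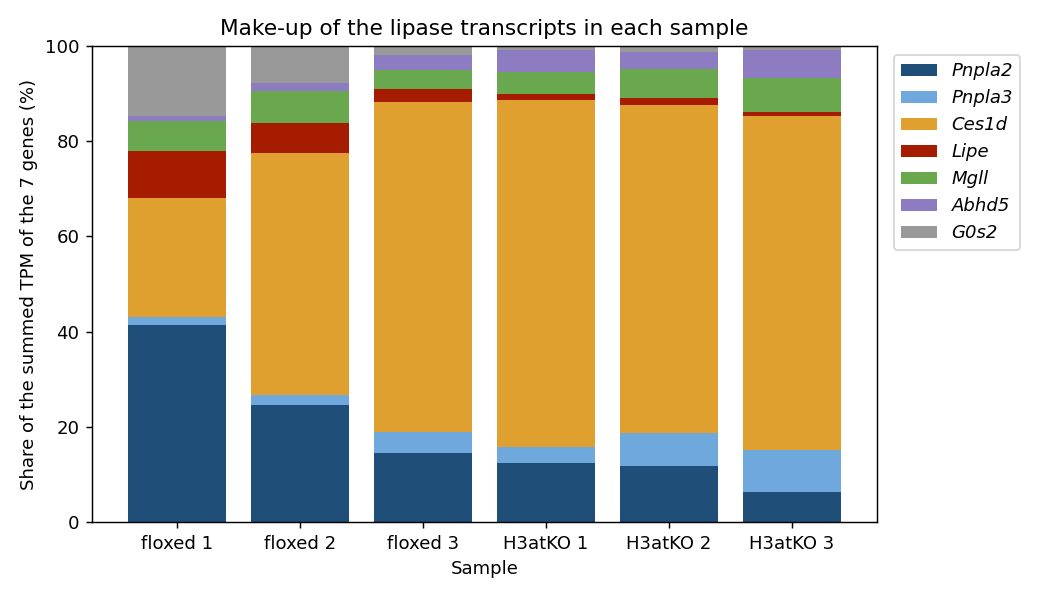
Share (%) of each gene in the summed TPM of the 7 genes, one bar per sample. *Pnpla2* and *G0s2* take 41.4 and 14.6% of the first floxed sample, and *Ces1d* takes 68.9 to 72.7% of each H3atKO sample and 69.3% of the third floxed sample.

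Ratios of counts between 2 of the genes in the same library do not depend on scaling, and 5 of them were tested by exact permutation (two-sided), which with 3 samples per genotype cannot go below p = 0.1. *Abhd5* had 0.531, 1.33 and 10.6 counts for each count of *G0s2* in the floxed pools, and 32.6, 17.9 and 42.5 in the H3atKO pools. These are ratios of raw counts, not of levels per length, and are compared only between samples. The genotypes did not overlap (difference 3.90 on the log2 scale, exact permutation p = 0.1, adjusted over the 5 ratios 0.125), but after GC correction they did (difference 1.84, exact permutation p = 0.2). *Pnpla2* had 9.80, 10.9 and 25.6 counts per count of *G0s2* in the floxed pools and 46.3, 30.1 and 23.8 in the H3atKO pools, and here the genotypes overlapped (difference 1.20, exact permutation p = 0.2, adjusted 0.2).

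The ratio of *Pnpla2* to *Abhd5* was 18.4, 8.17 and 2.41 in the floxed pools and 1.42, 1.68 and 0.561 in the H3atKO pools (difference -2.69 on the log2 scale, exact permutation p = 0.1, adjusted 0.125). It was the ratio that moved most with GC correction, to a difference of -0.51 with overlapping genotypes (exact permutation p = 0.2). The ratio of *Lipe* to *Pnpla2*, the enzymes of the second and the first step, was 0.465, 0.500 and 0.380 in the floxed pools and 0.199, 0.259 and 0.210 in the H3atKO pools (difference -1.01, exact permutation p = 0.1, adjusted 0.125). These 2 messages are alike in GC content, their ratio varied little within a genotype, and the genotypes were apart before and after GC correction (difference -1.30 after it, exact permutation p = 0.1). The ratio of *Mgll* to *Lipe* was 0.556, 0.940 and 1.23 in the floxed pools and 3.20, 3.27 and 9.12 in the H3atKO pools (difference 2.4, exact permutation p = 0.1, adjusted 0.125), and 2.33 after GC correction (exact permutation p = 0.1). Relative to the enzymes before and after it in the pathway, *Lipe* was therefore lower in every H3atKO sample than in every floxed sample. The p was the smallest that the unpaired test allows with this number of samples. With the replicate number as a block, an exact test gave p = 0.25 for each of these ratios, which is the smallest that such a test allows with 3 samples per genotype. Both ratios share *Lipe*, and the share of gene pairs without overlap was not computed.

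**Figure D5:**
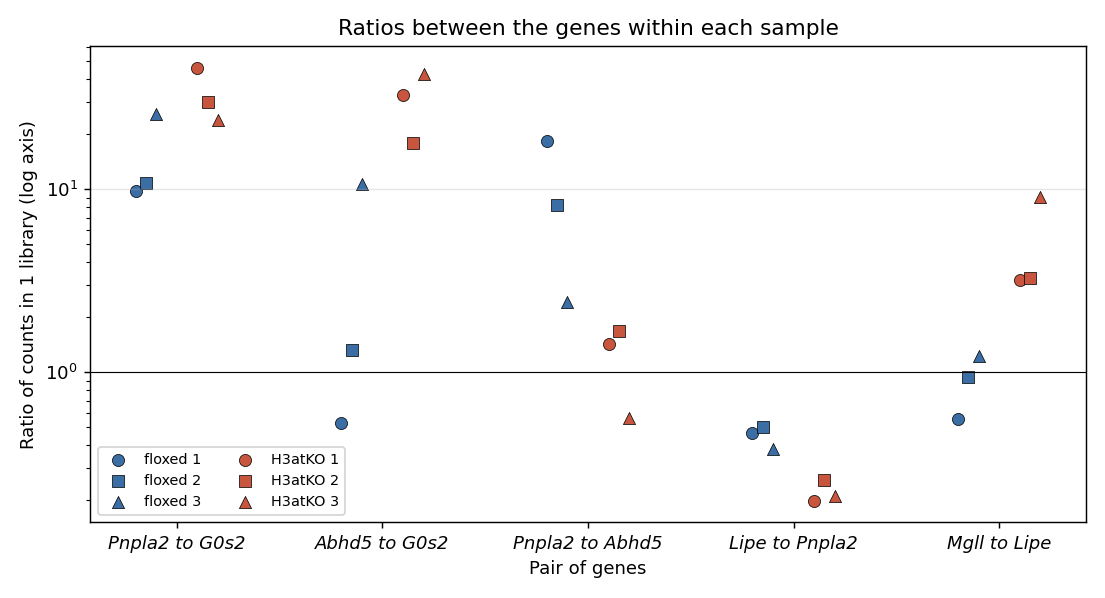
Ratio of counts (log axis) between 2 genes in the same library for 5 pairs, in each floxed (blue) and H3atKO (red) sample. *Lipe* to *Pnpla2* is 0.380 to 0.500 in floxed and 0.199 to 0.259 in H3atKO samples, *Mgll* to *Lipe* is 0.556 to 1.23 against 3.20 to 9.12, and *Pnpla2* to *G0s2* overlaps.

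Genes with a pattern most like each of the 7 were found by the root mean square (RMS) difference of log2 deviations over the 6 samples, among 11642 genes. Nearest to *Pnpla2* were *Piezo1* (RMS 0.132), *Pacsin3* (0.194) and *Wdr18* (0.195). Nearest to *Lipe* were *Atp9a* (0.164), *Hr* (0.176) and *Tinagl1* (0.183), and nearest to *G0s2*, though less close, *Fstl3* (0.349), *Sncg* (0.357) and *Ndufa11* (0.390). All 9 of these genes had a GC content between 55.2 and 61.6%. The upper quartile of the tested genes began at 54.0%, and the share of all genes within that range was not computed. *Lipe* itself was the 7th nearest gene to *G0s2*, *G0s2* the 88th nearest to *Lipe* and *Pnpla2* the 195th. *Mgll* was most like *Tsen34* (0.230), *Cox19* (0.230) and *Myo1d* (0.237), and *Pnpla3* was most like *Slc25a4* (0.102), with *A930033H14Rik* at 0.175. GC content was 56.7, 51.0 and 52.9% for the genes near *Mgll* in this order. It was 51.8% for *Slc25a4* and 48.9% for *A930033H14Rik*, below the 58.4% of *Pnpla3* itself. *Ces1d* had *Bloc1s5* (0.065), *Tmem38b* (0.093) and *6430550D23Rik* (0.108), and *Abhd5* had *Dcbld1* (0.068), *Nol10* (0.077) and *Supv3l1* (0.090). *Pnpla2*, the enzyme that *Abhd5* activates, was the 10746th nearest gene to *Abhd5*.

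Several of the genes have relatives or neighbours with which reads could be shared. *Ces1d* sits in a cluster of carboxylesterase genes, of which *Ces1f* had 8469, 12835 and 7896 counts in the floxed pools and 4355, 6613 and 2523 in the H3atKO pools. *Ces1f* was as level as *Ces1d* (log2 fold change -0.064, adjusted p = 0.901 from limma voom), and the other genes of the cluster had at most 63 counts. Reads that fit more than 1 of them equally were given to none, so the split between *Ces1d* and *Ces1f* is uncertain. Among relatives of *Pnpla2* and *Pnpla3*, *Pnpla8* was upregulated (1.94, adjusted p = 0.0126 from limma voom), while *Pnpla6* (-2.45, adjusted p = 0.0570) and *Pnpla7* (-1.79, adjusted p = 0.0501) missed the threshold and passed it with the replicate block (adjusted p = 0.0029 and 0.0037, limma). With block and GC correction *Pnpla6* passed (-1.68, adjusted p = 0.0135, limma) and *Pnpla7* did not (-0.76, adjusted p = 0.0865). The antisense gene *Gm26588* within *Mgll* had 53 to 156 counts and those within *Lipe* and *Abhd5* at most 5, each far below the gene it overlaps. *G0s2* and its neighbour *Lamb3* lie on opposite strands and share no exon.

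Beyond the 7 genes, 41 other genes of lipolysis and its control were listed, and 38 of them were tested. Of these, 7 were upregulated and 4 down-regulated in limma voom, with a median log2 fold change of 0.19, beside 9.42% of all genes upregulated and 7.07% down-regulated. The block raised these counts to 10 upregulated and 12 down-regulated genes, shares near the 24.8% and 28.7% of all genes in that fit. After GC correction 8 were upregulated and 1 down-regulated, beside 5.6% and 3.11% of all genes. Without floxed replicates 1, 2 and 3 in turn, 1, 0 and 9 were upregulated and 0, 0 and 13 down-regulated, and without H3atKO replicates 1, 2 and 3 in turn 4, 2 and 0 were upregulated and 1, 0 and 0 down-regulated. Over all genes, the floxed omissions in the same order gave 149, 1 and 2729 upregulated and 90, 0 and 3828 down-regulated calls. The H3atKO omissions gave 199, 395 and 87 upregulated and 47, 139 and 20 down-regulated calls over all genes. The count thus depends on each library, for the list as for all genes.

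Control of the lipolytic signal was represented by 10 tested genes. Of these receptors and members of cAMP signalling 3 were upregulated and 1 down-regulated, beside the same 9.42% and 7.07% of all genes. *Pde3b*, the phosphodiesterase through which insulin lowers cAMP in adipocytes, was at 525, 592 and 725 cpm in the floxed pools and 1642, 2461 and 2327 cpm in the H3atKO pools (log2 fold change 1.80, adjusted p = 0.0151 from limma voom, and 1.13 with 0.0244 after GC correction). *Prkar2b* (1.77, adjusted p = 0.0292) and *Prkacb* (1.13, adjusted p = 0.0478), a regulatory and a catalytic subunit of protein kinase A, were higher in every H3atKO sample in the same fit by limma voom, and neither passed after GC correction. With block and GC correction *Prkacb* passed (0.65, adjusted p = 0.0340, limma) and *Prkar2b* did not (1.12, adjusted p = 0.0825). *Prkaca*, another catalytic subunit, had a negative value (-0.75, adjusted p = 0.178, limma voom). It was called down-regulated with the block (-0.76, adjusted p = 0.0287, limma) and was at 0.52 with block and GC correction (adjusted p = 0.0813). *Hcar1* was called down-regulated with the block (-1.59, adjusted p = 0.0331, limma) but not with block and GC correction (-1.11, adjusted p = 0.137). *Npr1*, a receptor of natriuretic peptides, was down-regulated (-1.99, adjusted p = 0.0271, limma voom), and its value was -0.19 after GC correction (adjusted p = 0.788). *Adrb3*, the adrenergic receptor typical of adipocytes, had 0.45 (adjusted p = 0.373, limma voom) and 1.82 after GC correction (adjusted p = 0.0428). *Adora1* had 0.62 (adjusted p = 0.129, limma voom) and 1.74 after GC correction (adjusted p = 0.0300).

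Among 14 tested hydrolases of the cell interior 3 were upregulated and 1 down-regulated, the latter a share like the 7.07% of all genes and the former beside 9.42%. *Pnpla8*, a phospholipase, was joined by *Ddhd2*, a lipase of neutral and phospholipids (1.5, adjusted p = 0.0207, limma voom), and by *Aadac*, an esterase, which had 6, 3 and 0 counts in the floxed pools and 85, 67 and 24 counts in the H3atKO pools (adjusted p = 0.0249, limma voom). *Daglb*, a diacylglycerol lipase that makes an endocannabinoid, was down-regulated (-1.99, adjusted p = 0.0215, limma voom) and remained so after GC correction (-1.79, adjusted p = 0.0175).

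Lipolysis outside the cell was represented by 5 genes. *Lpl*, the lipase that adipocytes send to the capillary wall, stood at 7838, 9428 and 10439.5 cpm in the floxed pools and 21063, 50718 and 47767 cpm in the H3atKO pools (log2 fold change 2.02, adjusted p = 0.0253 from limma voom, and 1.3 with 0.0532 after GC correction). With block and GC correction *Lpl* passed (1.28, adjusted p = 0.0425, limma). *Gpihbp1*, which anchors it on endothelial cells (-2.97, adjusted p = 0.0480, limma voom), and *Angptl4*, which inhibits it (-2.39, adjusted p = 0.0461, limma voom), were down-regulated. Neither passed after GC correction, at -2.01 and -2.02. Both passed with block and GC correction (-2.07 and -2.04, adjusted p = 0.0104 each, limma). None of 6 droplet proteins and of 3 proteins of fatty acid and glycerol export was called by limma voom without the block or by edgeR, though *Aqp7* and *Cd36* had an unadjusted p under 0.05. With the replicate block *Cidec* (-1.48, adjusted p = 0.0060, limma) and *Aqp7* (-0.93, adjusted p = 0.0149) were down-regulated, and *Plin5* (1.28, adjusted p = 0.0394) and *Cd36* (0.82, adjusted p = 0.0424) upregulated. *Plin5* also passed after GC correction (3.45, adjusted p = 0.0079 from limma). The other 3 were not called with block and GC correction. In that fit *Cidec* was at 0.13 (adjusted p = 0.688, limma) and *Cd36* at -0.31 (adjusted p = 0.451), signs opposite to those with the block alone. *Aqp7* was at -0.76 (adjusted p = 0.0546, limma). *Plin1*, which holds *Abhd5* at rest, was at 634, 288 and 68.3 cpm in the floxed pools and 74.4, 138 and 97.0 cpm in the H3atKO pools, a pattern with the third floxed sample again the lowest (-1.22, adjusted p = 0.229 from limma voom). *Fabp4*, the fatty acid carrier of adipocytes, was level (0.050, adjusted p = 0.922 from limma voom).

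Cell type markers also moved between samples. The mean log2 cpm of 9 adipocyte markers, 3 of which (*Plin1*, *Cidec* and *Fabp4*) are also in the lipolysis list, was 10.4, 9.97 and 8.87 in the floxed pools and 8.11, 9.23 and 8.30 in the H3atKO pools, a difference of -1.19 with overlap (two-sided exact permutation p = 0.2). Their summed level was 14772 to 34393 cpm in floxed and 15789 to 27298 cpm in H3atKO samples, and 1 of the 9, *Cfd*, was down-regulated (-3.99, adjusted p = 0.0223, limma voom). The third floxed sample, which was low in *Lipe*, *Pnpla2*, *Mgll* and *G0s2*, was also the lowest floxed sample in these markers and the highest of all in macrophage markers, at 1025 cpm summed over 6 genes against 209 to 372 cpm in the others. Fibroblast or progenitor markers summed to 4091 cpm in that sample and to 872 to 1482.5 cpm in the others. The mean of 6 brown adipocyte markers differed by 1.89 between the genotypes, H3atKO minus floxed, with 1 of them called (*Dio2*) and *Cox7a1* at -0.28. The mean of 4 endothelial markers differed by -1.25, with *Pecam1* and *Cdh5* called and *Kdr* at 0.30, and that of 5 fibroblast or progenitor markers by -1.75, with *Pi16* called and *Dpp4* at -0.11. None of these 3 lists overlapped between the genotypes (exact permutation p = 0.1, adjusted over the 10 lists 0.25). Skeletal muscle markers ranged from 1.77 to 2990 cpm in H3atKO samples, and B cell markers from 3.36 to 365 cpm. T cell markers differed by 2.32 (exact permutation p = 0.2), those of epithelium were at most 4.36 cpm, and *Alb*, the 1 hepatocyte marker tested, was between 17.6 and 93.5 cpm in floxed and between 0.379 and 1.40 cpm in H3atKO samples. The part of these cell types in the values of the lipase genes was not tested.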

How the data were processed

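The authors made stranded libraries from poly(A)-selected RNA, trimmed the reads with cutadapt 1.3, aligned them to GRCm38 with STAR 2.4.2a and assigned them to Ensembl genes with HTSeq 0.6.1. They deposited raw counts of 46517 genes for each sample, with 5 closing lines of reads given to no gene, which were left out of library sizes and tests. Symbols, positions, exon lengths, GC content and transcript sequences came from GENCODE M21 (GRCm38), and 46005 identifiers matched.

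Following the study's methods, genes reaching 1 cpm in any of the samples (14967) were scaled with TMM (edgeR 4.0.16) and compared with limma 3.58.1 (voom, genotype alone, 3 samples per genotype) in R 4.3.3, with a call at an adjusted p under 0.05. Alternatives were edgeR's quasi-likelihood test, DESeq2 1.42.0, RLE factors or library sizes alone, other filters, a threshold of 0.1, the replicate number as a block, a GC correction (robust loess curve of each sample's deviations on GC content, span 0.3, for 14922 genes), both together, no mitochondrial genes, scaling to 9 adipocyte markers and leaving out each sample. After subtraction of the genotype means, same-numbered samples correlated across genes with r of 0.510, 0.389 and 0.264. The mean of -0.198 for differently numbered ones is largely fixed by these through the subtraction and adds no separate evidence. The numbers, which both genotypes carry in the labels, were taken to pair the samples, a choice made from these same data. What they stand for is not given in the sources used here.

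Library totals of 23865507 to 35200685 counts give a floor of 3 counts at 0.0852 to 0.126 cpm. Floors cover counting error only. Likeness was computed among genes with a symbol and a mean of at least 1 log2 cpm. All 7 genes are named, as are *Hdac3*, every other lipolysis gene called, *Plin1*, *Adrb3*, *Lpl* and *Fabp4*, and the 3 genes most like each of the 7, of which 1 is not reported here. Genes of the text outside this rule are relatives, overlapping genes, markers and lipolysis genes called with the block or after GC correction, chosen after their values were seen. The genes and lists were chosen with earlier results of these data known.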

Additional observations from a re-analysis of the deposited data

Results flagged for a closer look

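Reads aligned to more than 1 place, which are tallied apart from the genes and enter no comparison above, were 44.7% ± 0.849 (SD, n = 3) of all alignments that were counted or tallied in H3atKO samples and 31.0% ± 3.68 (SD, n = 3) in floxed samples. The ranges were 43.8 to 45.5% and 28.3 to 35.2% and did not overlap. The tally does not name genes, so how much of it belongs to near-identical relatives such as the carboxylesterases around *Ces1d* was not tested.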

How the results depend on the processing

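Among the 7 genes, the signs of *Lipe*, *G0s2* and *Pnpla2* were kept under every alternative run, and RLE factors, no filter and the omission of mitochondrial genes left the count of calls at 0. Calls down-regulated numbered 2 with edgeR, 3 with DESeq2, 4 with library sizes alone, 1 with at least 10 counts in every sample, 3 with the replicate block, 1 with the block and GC correction and 2 at a threshold of 0.1, and ranged from 0 to 4 when a sample was left out. Calls upregulated numbered 1 with DESeq2, 1 with the block, 1 with the block and GC correction, 2 with the adipocyte scaling and 1 at a threshold of 0.1. Signs turned for *Pnpla3* (-0.36) and *Abhd5* (-0.22) with library sizes, for *Mgll* with GC correction (0.72), with block and GC correction (0.77) and with the adipocyte scaling (0.53), and for *Ces1d* with DESeq2 (0.0099), with the adipocyte scaling (1.11) and when a sample was left out (-0.33 to 0.15). Beyond the calls of *Lipe*, *G0s2*, *Pnpla2*, *Abhd5*, *Pnpla6*, *Pnpla7*, *Prkaca*, *Hcar1*, *Cidec*, *Plin5*, *Aqp7* and *Cd36*, the replicate block changed no call of a lipolysis gene named in the text. After GC correction the ratio of *Pnpla2* to *Abhd5* differed by -0.51 and that of *Lipe* to *Pnpla2* by -1.30. Other lipolysis genes called down-regulated numbered 7 with edgeR, 10 with DESeq2, 13 with library sizes, 2 without filter, 7 with at least 10 counts, 12 with the block, 1 with GC correction, 0 with the adipocyte scaling and 0 to 13 with a sample left out. Those called upregulated numbered 13 with block and GC correction, 12 with the adipocyte scaling and 0 to 9 with a sample left out. Over all genes, upregulated calls numbered 2935 with DESeq2, 306 with library sizes, 3717 with the block, 835 with GC correction, 2547 with the adipocyte scaling and 1 to 2729 with a sample left out. Down-regulated calls numbered 2749 with edgeR, 3465 with DESeq2, 5667 with library sizes, 1864 with at least 10 counts, 4290 with the block, 464 with GC correction, 74 with the adipocyte scaling and 0 to 3828 with a sample left out. Fewer samples also lower the power of these fits, and the cause of the other differences was not tested. Every one of the 7 genes was well above the floor of 3 counts.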
